A study of Mus musculus with 31 samples.

Results

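The nuclear genes of respiratory complexes II to V were followed in mouse masseter muscle (MM) after inflammation or enzymatic damage. The members are the gene symbols of the deposited tables that begin with Uqcr, Atp5 or Cox4 to Cox8, plus Sdha, Sdhb, Sdhc, Sdhd, Cyc1 and Cycs, with 10 or more counts in 3 or more of the 31 libraries. The pattern matched 50 symbols and 48 passed the count rule, among 15526 passing genes of 22609 listed. Cox7b2 and Cox8c did not pass. The members fell into complex II with 4 genes, complex III with 9, cytochrome c with 1, complex IV with 16 and complex V with 15. The other 3, Cox4nb, Atp5s and Atp5sl, match by symbol but are not subunits and were counted apart.

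The study modelled muscle pain by injecting the left MM of adult male C57Bl/6 mice, 2 to 4 months old by the study's methods, with an inflammatory agent or a matrix-degrading enzyme, and sequenced poly(A) RNA of the whole muscle. Complete Freund's adjuvant (CFA), an emulsion that provokes inflammation, was mixed 1:1 with phosphate-buffered saline, and muscle was taken at 1d and 5d (3 libraries each), with 3 vehicle libraries. Collagenase type 2 (Col), which digests collagen, was given at 0.2U to the groups labelled 1C and RPC (4 libraries each). A dose of 10U was given to the groups labelled 2d (4), 6d (3) and 12d (4). The 3 vehicle libraries used for all 5 groups are titled Contr, with no experiment named. They were taken as Col vehicle because the other vehicle libraries are titled CFA control. The study's text reports 10U muscle at 1d, 6d and 14d, which were matched here to the groups labelled 2d, 6d and 12d. The labels do not tie 1C and RPC to a day. The day on which vehicle muscle was taken is not given in the sources used here. Injected muscle was analysed as a whole, so every group mixes fibres with the other cells of the tissue. Libraries held 14843778 to 29076671 counts on genes, with a median of 20834472.

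Complex II, succinate dehydrogenase, oxidises succinate in the citric acid cycle and passes electrons to ubiquinone. Complex III passes them to cytochrome c, and complex IV passes them to oxygen. Complexes III and IV pump protons across the inner mitochondrial membrane, and complex V, the ATP synthase, lets them flow back to make ATP. Mitochondrial DNA encodes part of the catalytic core of complex III, the catalytic core of complex IV and some subunits of complex V. Every gene described here, and all of complex II, is nuclear. Striated muscle is rich in mitochondria and uses its own isoforms of several complex IV subunits, among them Cox6a2, Cox7a1 and Cox8b, where most other cells use Cox6a1, Cox7a2 and Cox8a. The deposited tables listed no mitochondrially encoded gene.

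The promoters of the muscle and ubiquitous isoforms are shown here because the isoform pairs were compared within each library. That of Sdhd is shown because it held 3 of the 5 motifs searched. Atp5k, not shown, had matches to the same 3 motifs. Each window runs from 250 bases before to 50 bases after the start in RefSeq (GRCm38.p6), read 5′ to 3′ on the strand of the gene. The windows lie at chr7:140900397-140900696 (minus strand) for Cox8b, chr19:7217567-7217866 (minus) for Cox8a, chr7:30183921-30184220 (plus) for Cox7a1, chr9:79759804-79760103 (minus) for Cox7a2, chr5:115348909-115349208 (minus) for Cox6a1 and chr9:50603800-50604099 (minus) for Sdhd. Capitals mark a match on either strand to the NRF1-type motif (GCGC and TGCGC with any 1 base between), CCGGAAG (ETS-type, bound by GABP among others), AAGGTCA (ERR-type), the MEF2-type motif (CTA and TAG with any 4 bases between) or CAGCTG (an E-box of the kind bound by myogenic factors).
Cox8b, muscle isoform: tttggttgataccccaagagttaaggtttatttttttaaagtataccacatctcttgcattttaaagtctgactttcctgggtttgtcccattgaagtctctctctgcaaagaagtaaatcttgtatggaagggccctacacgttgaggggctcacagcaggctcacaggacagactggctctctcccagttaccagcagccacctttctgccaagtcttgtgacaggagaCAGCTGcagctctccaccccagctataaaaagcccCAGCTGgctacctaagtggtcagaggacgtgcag
Cox8a, ubiquitous isoform: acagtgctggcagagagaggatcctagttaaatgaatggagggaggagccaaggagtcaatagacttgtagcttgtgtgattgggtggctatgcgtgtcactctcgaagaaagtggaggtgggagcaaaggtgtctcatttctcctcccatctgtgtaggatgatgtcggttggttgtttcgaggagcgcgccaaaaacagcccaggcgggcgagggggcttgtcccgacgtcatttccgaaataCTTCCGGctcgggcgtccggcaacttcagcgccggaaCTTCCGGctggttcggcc
Cox7a1, muscle isoform: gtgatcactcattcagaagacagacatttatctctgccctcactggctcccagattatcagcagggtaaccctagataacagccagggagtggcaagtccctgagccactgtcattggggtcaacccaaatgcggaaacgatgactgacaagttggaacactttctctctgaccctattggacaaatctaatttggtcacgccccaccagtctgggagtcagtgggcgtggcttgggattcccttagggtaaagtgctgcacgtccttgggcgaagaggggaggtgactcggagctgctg
Cox7a2, ubiquitous isoform: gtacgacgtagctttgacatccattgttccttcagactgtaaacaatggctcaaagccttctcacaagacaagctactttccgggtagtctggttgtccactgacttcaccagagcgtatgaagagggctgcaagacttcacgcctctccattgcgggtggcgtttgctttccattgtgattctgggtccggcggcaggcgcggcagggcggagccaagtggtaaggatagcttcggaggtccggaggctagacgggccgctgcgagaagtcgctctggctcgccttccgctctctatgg
Cox6a1, ubiquitous isoform: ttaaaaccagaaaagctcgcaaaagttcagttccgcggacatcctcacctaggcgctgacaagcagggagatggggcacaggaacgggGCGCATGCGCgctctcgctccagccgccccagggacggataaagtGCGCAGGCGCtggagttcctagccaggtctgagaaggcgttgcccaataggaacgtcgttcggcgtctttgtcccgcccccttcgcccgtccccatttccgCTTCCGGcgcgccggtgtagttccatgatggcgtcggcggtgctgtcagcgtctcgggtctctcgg
Sdhd, complex II: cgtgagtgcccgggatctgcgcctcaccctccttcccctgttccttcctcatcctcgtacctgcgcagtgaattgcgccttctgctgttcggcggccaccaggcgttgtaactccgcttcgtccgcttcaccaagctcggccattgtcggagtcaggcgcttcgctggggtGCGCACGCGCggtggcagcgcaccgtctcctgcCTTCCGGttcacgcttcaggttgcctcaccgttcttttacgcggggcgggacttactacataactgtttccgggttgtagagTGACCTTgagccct

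The Cox8b window held 2 E-boxes and none of the other 4 motifs, whereas the Cox8a window held 2 ETS-type matches, both read on the opposite strand. The Cox6a1 window held 2 NRF1-type matches and 1 ETS-type match. The Cox7a1 and Cox7a2 windows held none of the 5. Over the 38 windows of the 35 members with an entry, the NRF1-type motif was in 26.3% of windows and the ETS-type in 31.6%, beside 4.6% and 8.86% of all 32851 windows. The ERR-type motif was in 13.2% of member windows and 4.72% of all windows. The MEF2-type motif was in 1 member window, that of Cox5b (2.63%, beside 3.69% of all), and CAGCTG in 2, those of Atp5b and Cox8b (5.26%, beside 16.3%). A match is a string of letters and says nothing of binding, and no entry was given for Atp5a1, Atp5s, Atp5sl, Cox4i1, Cox4i2, Cox4nb, Cox6a2, Cox6c, Cyc1, Sdhc, Uqcrb, Uqcrc2 and Uqcrq.

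In vehicle-treated MM the mRNAs of complex IV ran from the highest of the family to among the lowest. Per exon length, as counts per 1000000 library counts (CPM) divided by the length in kilobases (RPKM, mean ± SD of the 6 vehicle libraries), Cox6a2 was the highest at 1393.2 ± 332, followed by Cox4i1 at 1246.0 ± 341 and Cox8b at 959 ± 371. The muscle isoforms stood far above their ubiquitous partners. Cox6a1 was at 71.3 ± 24 RPKM, Cox8a at 72.7 ± 30.7 and Cox7a2 at 210 ± 56.7, against 860 ± 263 for Cox7a1. Among the remaining complexes, the catalytic ATP synthase subunits led, with Atp5a1 at 930 ± 198 and Atp5b at 900 ± 239 RPKM. Uqcrc1, a core subunit of complex III, was at 587 ± 179, and Cyc1, the haem protein that hands electrons to cytochrome c, at 516 ± 157. Of complex II, Sdha, the flavoprotein, was at 323 ± 54.6, the membrane anchor Sdhd at 281 ± 71.0, the iron-sulfur subunit Sdhb at 217 ± 62.9 and the anchor Sdhc at 124 ± 33.6. Neighbours in this order had overlapping ranges over the 6 libraries, so the order holds only for genes far apart.

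A short tail of members lay below the main subunits. Cycs, the electron carrier between complexes III and IV, was at 5.41 ± 0.953 RPKM, Atp5g1 at 3.25 ± 1.36, Cox7c at 1.49 ± 0.679, Atp5l at 0.836 ± 0.321 and Atp5g2 at 0.342 ± 0.227. These genes have processed copies elsewhere in the genome, and reads that aligned to several places were not counted. The share of 50-base windows of their exons that occur more than once in the genome was 100% for Atp5g2, 89.4% for Atp5l, 37.5% for Cycs, 29.8% for Cox7c and 25.1% for Atp5g1, so their levels are uncertain. The same limit touches members outside the tail, namely Uqcrb (49.6%), Cox7a2l (48.3%), Cox5b (46.9%), Atp5h (33.6%), Uqcr11 (20.2%), Atp5f1 (18.6%) and Cox8a (18.3%), the last of which enters the isoform ratios. Every other member had 8.3% or less. Cox4i2, the isoform best known from lung, at 7.68 ± 2.37, and Cox6b2, the testis isoform, at 1.57 ± 0.422 RPKM, have partners that are far higher in muscle.

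**Figure D1:**
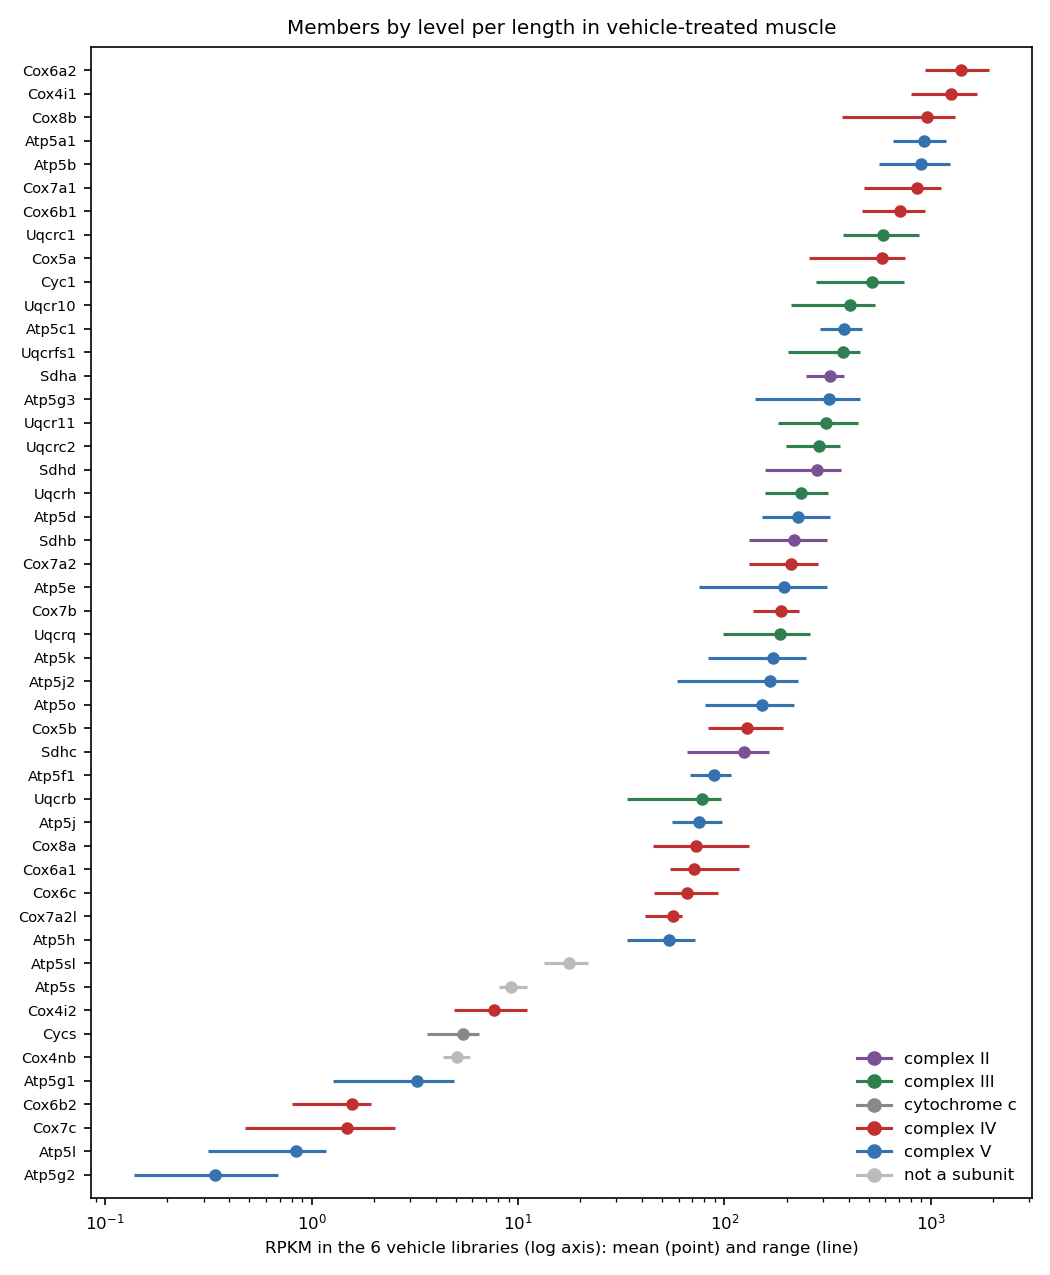
Level of each of the 48 members per exon length (RPKM, log axis) in the 6 vehicle libraries of both experiments, with points for means, lines for the range, and colours for the complexes. Cox6a2, Cox4i1 and Cox8b lead, while Cox4i2, Cycs, Atp5g1, Cox6b2, Cox7c, Atp5l and Atp5g2 are the 7 lowest subunits.

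A feature outside the members divided the libraries and moved with the members. The ratio of counts between Aldoart1 and Aldoart2, near-copies of the aldolase gene Aldoa that are not members, was 0.93 to 1.35 in 22 libraries and 2.01 to 2.7 in 9, with none between. The 9 high-ratio libraries were vehicle replicate 3 of the Col experiment, 1C replicates 3 and 4, replicates 1 to 3 of 10U Col 2d and all 3 of 10U Col 6d. The division, cut at 1.7 after the values were seen, is not one of the study's groups, and the sources used here name no batch. Across the 22 Col libraries, fitted with treatment group and ratio class together (edgeR quasi-likelihood test, Benjamini-Hochberg adjustment over 15385 genes), 32 of 48 members were lower in high-ratio libraries and 0 were higher, beside 9.87% of all genes lower. The median difference of the members was -0.72 on the log2 scale, beside -0.04 for all genes. All 9 members of complex III were called, 3 of 4 of complex II, 10 of 15 of complex V, 9 of 16 of complex IV, and Cycs.

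The differences between the classes were uneven among subunits of the same complex. In complex V, Atp5e, the small epsilon subunit, differed by -1.85 (SE 0.16, adjusted p = 2.99e-06), whereas Atp5a1 differed by -0.63 (SE 0.22, adjusted p = 0.0603). In complex IV, Cox8b differed by -1.65 (SE 0.21, adjusted p = 0.000104) and Cox8a by +0.46 (SE 0.26, adjusted p = 0.25). Median levels in high-ratio and low-ratio Col libraries were 116 and 287 CPM for Cox8b, and 76.8 and 41.6 CPM for Cox8a. Total counts on genes ran from 15759560 to 21951332 in high-ratio and from 14843778 to 29076671 in low-ratio libraries. What the ratio stands for was not tested. Each Col comparison is therefore given from a fit of its own 2 groups, called without the class term below, and from 1 joint fit of the 22 Col libraries with the class as a term, called with the class term. These fits differ in libraries as well as in the term, so the joint fit without the class, added after seeing the data, is given beside them where members were called.

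The 11 libraries of 10U Col also differed from the other 20, both vehicle groups included, in reads assigned to more than 1 gene, which the counting leaves out. These were 0.68 to 0.88 per 100 counts on genes in the 10U libraries and 0.15 to 0.32 in the others. Every comparison of 10U Col with vehicle crosses this difference, and its part in the values was not tested.

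**Figure D2:**
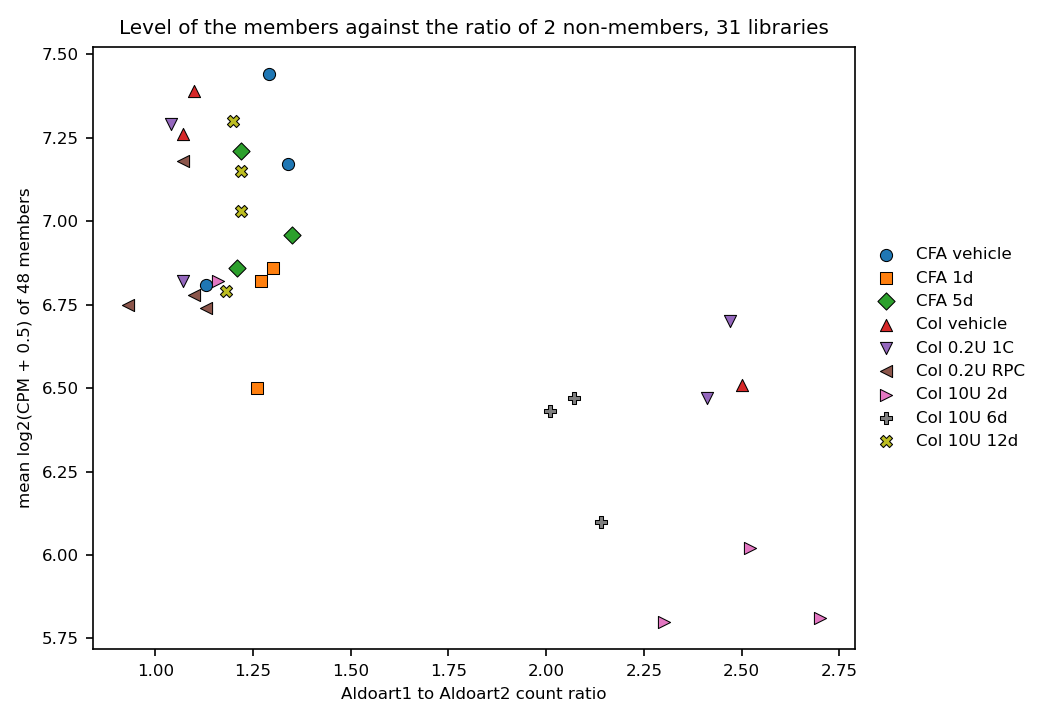
Mean log2(CPM + 0.5) of the 48 members (vertical axis) against the Aldoart1 to Aldoart2 count ratio (horizontal axis) in 31 libraries, with a symbol for each group. The 9 libraries at ratios of 2.01 or more lie between 5.8 and 6.7, and the 22 at 1.35 or less between 6.5 and 7.44.

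The CFA comparisons ask how inflammation at 1d, and its fading by 5d, moved these mRNAs. All 9 CFA libraries had a low ratio. At 1d post-CFA, 45 of 46 tested members lay below vehicle on average, with a median log2 fold change of -0.49 beside -0.01 for all genes, but no member passed the edgeR test at an adjusted p under 0.05, where 0.0% of genes did. A single member and 588 of 13944 genes had an unadjusted p under 0.05, and DESeq2 also called 0 members. The complexes lay together, with medians of -0.51 in complexes II and V, -0.52 in complex III and -0.44 in complex IV. In bulk muscle, fewer fibres and less RNA per fibre cannot be told apart here or in any comparison below.

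Of the 4 genes of complex II, Sdhc alone had groups without overlap at 1d, although Sdhb had the larger difference (-0.65, SE 0.30, beside -0.51, SE 0.25, both with adjusted p = 0.924 by edgeR). Sdhc had 417, 532 and 362 CPM in the vehicle libraries and 256, 340 and 324 at 1d post-CFA. Sdha was at 1383.5, 1471.4 and 1065.4 CPM in vehicle and 783, 1173.7 and 928 at 1d, with overlap. In all, 7 members were lower in every 1d library than in any vehicle library (Sdhc, Uqcrh, Cycs, Cox5a, Cox7a2, Atp5c1 and Atp5j), beside 3.13% of all genes. Cox6a1 (+0.01), Cox8a (-0.09) and Cox4nb (-0.03) lay nearest to 0. The summed CPM of 18 myofibre genes (contractile and calcium-handling genes) ranged from 126123.2 to 269150.0 in vehicle and from 135793.7 to 188567.1 at 1d. With libraries scaled to those genes, the members' median was -0.16, where all genes moved to +0.21.

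At 5d post-CFA the median was -0.13, with 33 of 47 members below vehicle and 14 above. Again no member passed edgeR or DESeq2, beside 1.11% of all genes called by edgeR. With scaling to myofibre genes the median turned to +0.18, where all genes moved to +0.24. The 2 members with an unadjusted p under 0.05 were the ubiquitous isoforms Cox6a1 and Cox8a. Cox6a1 was at 63.7, 55.4 and 56.8 CPM at 5d, above the 38.7, 53.0 and 39.9 of vehicle without overlap (log2 fold change +0.47, SE 0.16, adjusted p = 0.248). Cox8a was at 56.6, 45.0 and 39.6 CPM against 31.3, 40.4 and 31.2 (+0.51, SE 0.18, adjusted p = 0.265), with 1 vehicle library inside the treated range. The salivary gland gene list summed to 62647.8 to 78506.4 CPM at 5d and 79.6 to 9380.8 in vehicle, and its part in these differences was not tested. The keratinocyte list also lay above vehicle at 5d (67.5 to 78.4 and 6.2 to 28.4), and the lists of adipocytes (1160.4 to 1474.3 and 1916.2 to 2510.8), brown fat (117 to 156 and 173 to 286), bone (32.7 to 40.6 and 56.3 to 191) and regenerating muscle (238 to 368 and 382 to 428) lay below it. Between 5d and 1d, 45 of 46 members were higher at 5d, with a median of +0.33. None passed edgeR, where 5.84% of genes were called, and 7 had an unadjusted p under 0.05. DESeq2 called 1, beside 6.76% of all genes higher, Cox7a2 (142, 178 and 157 CPM at 5d, and 96.3, 107 and 120 at 1d; +0.56, adjusted p = 0.0461).

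**Figure D3:**
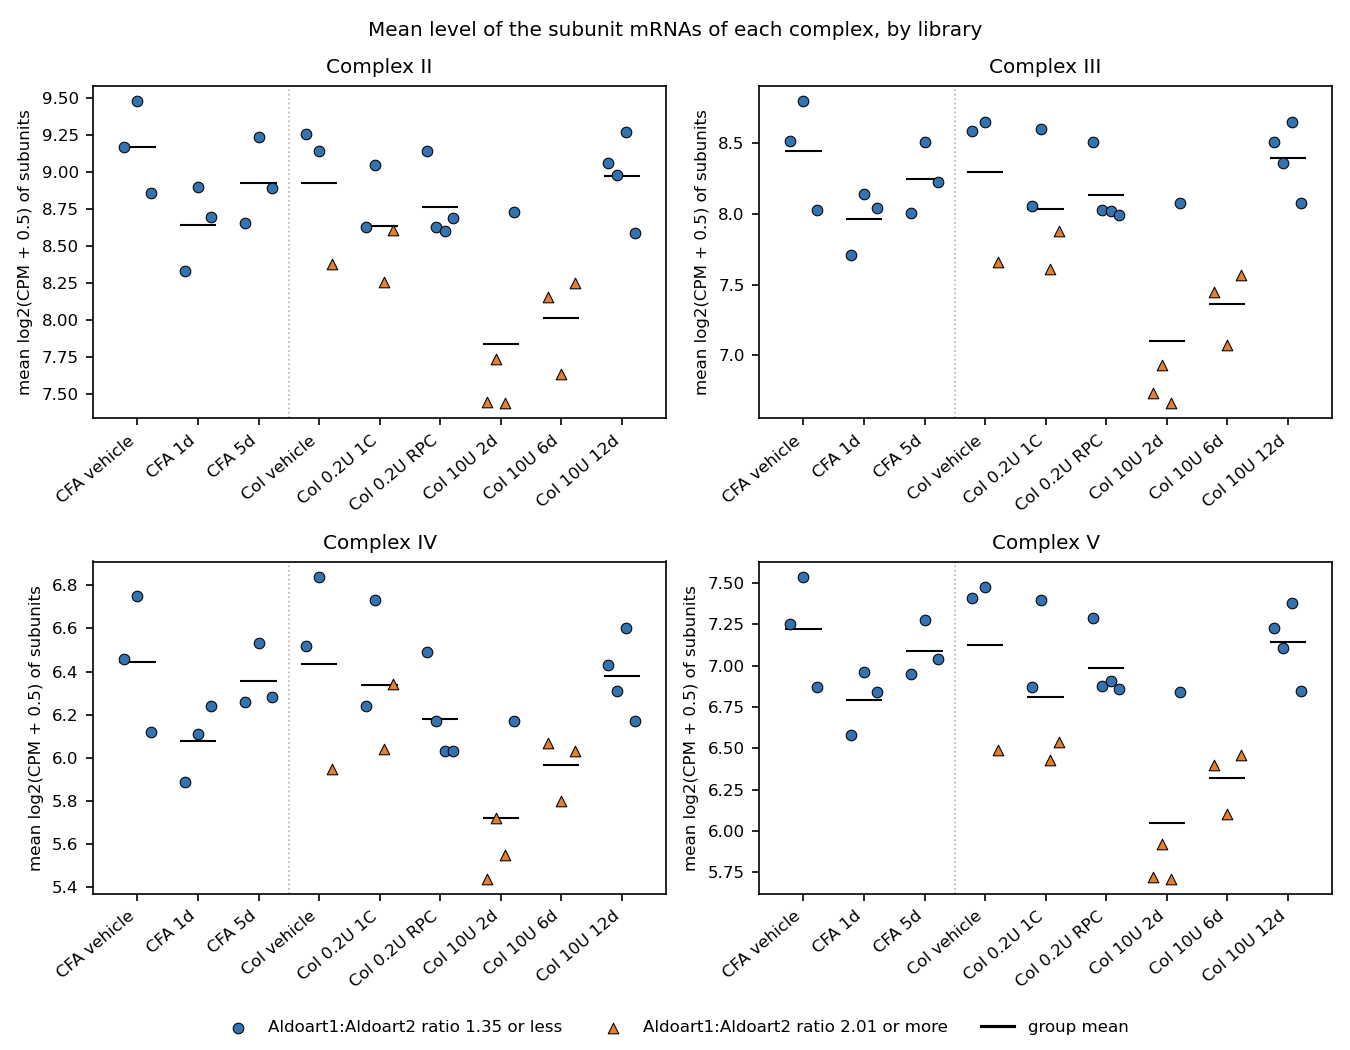
Mean log2(CPM + 0.5) of the subunits of complexes II, III, IV and V (one panel each) in every library of the 9 groups, with a bar at each group mean, circles for low-ratio and triangles for high-ratio libraries. The 3 high-ratio libraries of 10U Col 2d lie lowest in the panels of complexes III, IV and V, 6d replicate 2 lies below 1 of them in that of complex II, and the 12d libraries lie within or near the range of Col vehicle.

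The 10U Col series asks how these mRNAs followed tissue damage from an early to a late time. The lowest summed levels of the members in the whole series were those of 10U Col 2d replicates 1 to 3. All members together summed to 6719.9, 8120.6, 6831.9 and 15175.4 CPM in replicates 1 to 4, against 23422.4, 22885.3 and 13415.3 in vehicle. Replicate 4, the only low-ratio library at 2d, lay inside the vehicle range. Without the class term, 44 of 46 members were below vehicle with a median of -1.03 (all genes +0.02). None passed edgeR at an adjusted p under 0.05, beside 2.22% of all genes, whereas 33 had an unadjusted p under 0.05 and DESeq2 called 28 lower, beside 11.4% of all genes. In the joint fit of the Col libraries, 31 of 48 members were lower without the class, beside 15.4% of all genes, and 30 with it, beside 12.0%, and 0 were higher in either. The joint fit thus called members both without and with the class, which moved the median from -1.03 to -0.73. Why edgeR called 0 in the fit of the 2 groups was not tested.

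Members of each complex were called lower at 2d with the class term. No member passed edgeR at 2d in the fit of the 2 groups, so the calls given below rest on the joint fit. In complex II 3 of 4 fell (median -0.85), in complex III 7 of 9 (-0.85), in complex IV 7 of 16 (-0.65) and in complex V 12 of 15 (-0.79), and differences between complexes were not tested. Atp5sl, named for ATP synthase but no subunit of it, was the 30th, and Cycs did not pass (-0.73, SE 0.29, adjusted p = 0.0724). Among the 30, log2 fold changes ran from -1.6 for Cox7a1 to -0.59 for Cox6c.

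Sdha was at 387, 448, 379 and 933 CPM in the 4 libraries of 2d and at 1443.7, 1196.0 and 961 in vehicle. No 2d library reached the vehicle range, although replicate 4 came close. The difference was -1.20 (SE 0.39, adjusted p = 0.0864) without the class term and -1.03 (SE 0.27, adjusted p = 0.0115) with it. Its partner Sdhb was at 120, 170, 125 and 349 CPM against 517, 534 and 293 (-1.0 with the term, SE 0.26, adjusted p = 0.0117), with replicate 4 above 1 vehicle library. Of the anchors, Sdhd fell (130, 151, 121 and 270 CPM against 399, 384 and 203; -0.69, SE 0.21, adjusted p = 0.0234). Sdhc, at 154, 181, 157 and 371 CPM against 473, 414 and 213, did not pass (-0.44, SE 0.21, adjusted p = 0.148).

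In complex III, Uqcrc1 was at 204, 277, 215 and 596 CPM at 2d and at 1055.7, 944 and 619 in vehicle, without overlap. With the class term it differed by -1.24 (SE 0.27, adjusted p = 0.0052). Cyc1, at 121, 154, 130 and 461 CPM against 682, 635 and 333, fell by 1.07 on the same scale (SE 0.27, adjusted p = 0.0101). Uqcrfs1, the Rieske iron-sulfur protein, was at 147, 167, 144 and 493 CPM against 622, 560 and 277 (-0.71, SE 0.23, adjusted p = 0.0364). For both, replicate 4 lay inside the vehicle range.

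In complex IV the muscle isoforms Cox7a1 and Cox8b had the lowest log2 fold changes, followed by Cox4i1 among the called members. Cox7a1, the muscle form of a small subunit near the contact between complexes, was at 33.6, 59.8, 45.9 and 197 CPM at 2d, against 398, 372 and 173 in vehicle (-1.6 with the term, SE 0.33, adjusted p = 0.00376). Cox8b was at 47.0, 67.9, 56.4 and 224 CPM against 385, 465 and 135 (-1.21, SE 0.26, adjusted p = 0.00421). In both, replicate 4 overlapped vehicle and the other replicates lay far below. Cox6a2, at 375, 466, 407 and 540 CPM against 887, 935 and 783, lay below vehicle in all 4 libraries (-0.93, SE 0.28, adjusted p = 0.0229), as did Cox4i1, a large subunit that regulates the enzyme (260, 316, 276 and 540 against 973, 981 and 545; -1.03, SE 0.20, adjusted p = 0.00269). The ubiquitous Cox7a2 also fell (64.6, 71.0, 66.1 and 129 against 182, 215 and 99.8; -0.70, SE 0.15, adjusted p = 0.00448). Cox6a1 (67.4, 84.5, 73.7 and 68.9 against 38.3, 82.2 and 48.1) and Cox8a (73.7, 84.8, 66.3 and 53.4 against 24.4, 71.7 and 38.8) had positive differences that did not pass (+0.23, SE 0.28, adjusted p = 0.586, and +0.34, SE 0.33, adjusted p = 0.477).

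In complex V, Atp5a1, the alpha subunit, was at 864, 1050.3, 844 and 1940.0 CPM at 2d and at 3448.3, 2900.9 and 2048.4 in vehicle. The groups did not overlap (-1.09 with the term, SE 0.27, adjusted p = 0.0103). The catalytic beta subunit Atp5b was at 1183.6, 1479.1, 1231.3 and 2765.7 CPM against 4232.9, 3903.6 and 2364.9 (-0.85, SE 0.25, adjusted p = 0.0224). Atp5o, the stalk subunit OSCP, was at 64.7, 82.7, 67.7 and 208 CPM against 407, 395 and 182 (-1.31, SE 0.24, adjusted p = 0.00179), but 12.7% of its exon bases overlap Donson on the same strand. Atp5k, a small membrane subunit, was at 27.7, 26.5, 24.2 and 69.3 CPM against 131, 153 and 51.0 (-1.12, SE 0.16, adjusted p = 0.000382). For Atp5b, Atp5o and Atp5k, replicate 4 overlapped vehicle.

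Without the class term, 12 members lay below every vehicle library in all 4 libraries of 2d, beside 10.8% of all genes, and the same fit without replicate 4 called 37 members lower, beside 18.4% of all genes. Within high-ratio libraries alone (3 against 1) the median of the members was -0.83, and within low-ratio libraries alone (1 against 2) it was -0.54, both values with no test because a group has 1 library. The myofibre list summed to 50995.5 to 92189.5 CPM at 2d and 138416.2 to 223774.6 in vehicle, with 18 of 18 genes listed and none at 0. Scaled to those myofibre genes, the direction turned: the members' median became +0.54 with 14 higher and 0 lower, while the median of all genes moved to +1.61 and 77.0% of them were called higher. The macrophage list, with 11 of its 12 genes in the tables, summed to 676 to 1673.5 CPM at 2d and 170 to 534 in vehicle. The remaining lists overlapped between these groups, as in adipocytes (716 to 1700.4 and 1565.3 to 1730.6), neutrophils (69.8 to 324 and 8.38 to 1192.6), keratinocytes (14.5 to 85.5 and 62.1 to 200), bone (75.4 to 207 and 45.5 to 232) and endothelium (566 to 960.0 and 695 to 926).

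**Figure D4:**
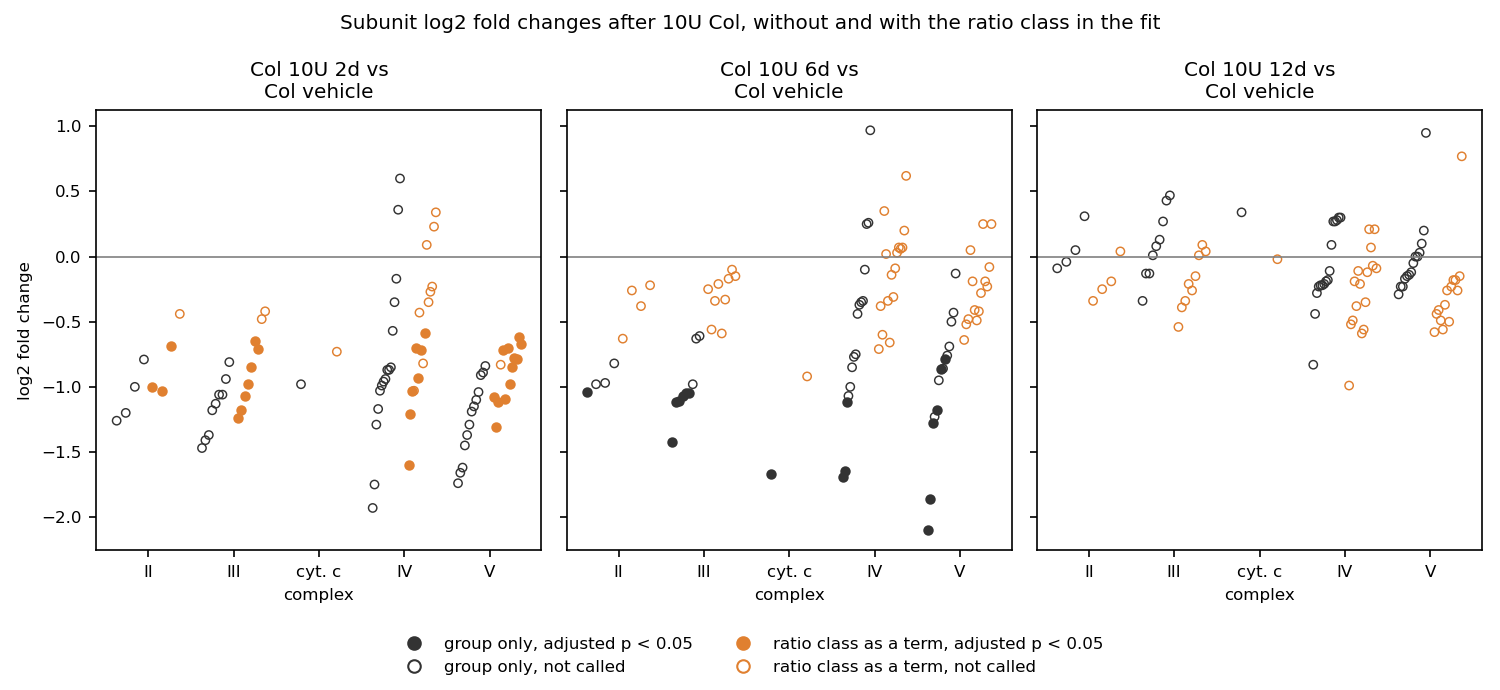
Log2 fold changes of the subunits of each complex and of cytochrome c against Col vehicle for 10U Col 2d, 6d and 12d, without the ratio class as a term (fit of the 2 groups) and with it (joint fit). Over all tested members, including those that are not subunits and are not drawn, the medians lie at -1.03, -0.86 and -0.04 without the term and at -0.73, -0.22 and -0.22 with it.

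At 6d post-10U Col the calls depended on the class. All 3 libraries had a high ratio, and 1 of the 3 vehicle libraries did. Without the term, 17 of 47 members were lower and 0 higher, with a median of -0.86 (all genes +0.01), beside 13.3% of all genes lower. In the joint fit without the class, 20 of 48 were lower, beside 16.2% of all genes, and 1 was higher. With the class term, edgeR called 0, where 11.8% of genes were called in either direction. The median was then -0.22 and 4 members had an unadjusted p under 0.05. DESeq2 without the term called 30 lower, beside 18.5% of all genes, and 1 higher. Without vehicle replicate 1, edgeR called 1 member, without vehicle replicate 2 it called 7, and without vehicle replicate 3, the high-ratio one, 29, beside 2817 of 14050 genes lower. Leaving out 6d replicate 1, 2 or 3 left 1, 1 or 2 members called.

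The 17 comprised Sdha, Cycs, 6 members of complex III (Uqcrb, Uqcrc1, Uqcr10, Uqcr11, Uqcrfs1, Uqcrq), 3 of complex IV (Cox4i1, Cox7a1, Cox8b) and 6 of complex V (Atp5c1, Atp5e, Atp5g1, Atp5j, Atp5k, Atp5o). Cycs was at 6.06, 4.28 and 6.72 CPM, all below the 19.3, 22 and 12.4 of vehicle (-1.67, SE 0.28, adjusted p = 0.00887, and -0.92, SE 0.33, adjusted p = 0.0772 with the term). Sdha was at 589, 440 and 746 CPM, also below vehicle (-1.04, SE 0.30, adjusted p = 0.041). Both muscle isoforms of this set lay below every vehicle library. Cox7a1, at 113, 60.0 and 121 CPM, differed by -1.69 (SE 0.39, adjusted p = 0.0208), and Cox8b, at 116, 80.7 and 119, by -1.65 (SE 0.42, adjusted p = 0.0287). Cox4i1, at 405, 339 and 420 CPM, differed by -1.12 (SE 0.29, adjusted p = 0.0281). With the class term these last 3 were at -0.71, -0.38 and -0.60 and did not pass.

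In complex V, Atp5e was at 101, 75.7 and 97.3 CPM at 6d and at 487, 551 and 133 in vehicle (-2.10, SE 0.48, adjusted p = 0.0201). Its lowest vehicle library was replicate 3, of the same class as the 6d libraries. Atp5j, a peripheral stalk subunit, was at 145, 124 and 166 CPM against 268, 305 and 174 (-0.79, SE 0.24, adjusted p = 0.0467). Atp5a1 (1618.8, 1161.8 and 1890.4 CPM) and Atp5b (1781.3, 1528.4 and 2183.1 CPM) lay below vehicle in each library but did not pass (adjusted p = 0.0997 and 0.0802). In all, 26 members lay below every vehicle library, beside 21.2% of all genes. Cox8a went the other way at 100, 89.9 and 75.5 CPM, above every vehicle library, without passing (+0.97, SE 0.35, adjusted p = 0.0719). The myofibre list summed to 58315.8 to 92798.4 CPM at 6d, the macrophage list to 1639.9 to 3277.2, the fibroblast list to 15861.4 to 27469.9 (vehicle 1503.8 to 9330.3) and the list of regenerating muscle, such as embryonic myosins, to 3033.2 to 5298.3 (vehicle 359 to 970). Below every vehicle library at 6d were the lists of adipocytes (637 to 1001.5 and 1565.3 to 1730.6), endothelium (566 to 669 and 695 to 926), keratinocytes (19.8 to 24.8 and 62.1 to 200) and salivary gland (10.9 to 32.0 and 68.7 to 66628.4). Scaled to myofibre genes, 12 members were higher at 6d and 0 lower, with a median of +0.43 where all genes moved to +1.31 and 69.7% of them were called higher. What share of these differences the cell types carry was not tested.

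Between 6d and 2d the joint fit called 1 member higher without the class, beside 5.71% of all genes, and 12 with it. In the fit of the 2 groups, 34 of 47 members were higher at 6d with a median of +0.24, edgeR called 0 beside 8.73% of all genes, 3 had an unadjusted p under 0.05, and DESeq2 called Cox6a2, Cox6b1 and Cox7a2l, beside 8.82% of all genes higher. With the class term the 12 were higher at 6d and 0 lower, beside 7.92% of all genes higher, with a median of +0.47. The 12 were 4 of complex III (Cyc1, Uqcr11, Uqcrc2, Uqcrh), 4 of complex IV (Cox6b1, Cox7a2, Cox7a2l, Cox8b), and Atp5g3, Atp5j2, Atp5k and Atp5o of complex V. Without the term, leaving out 2d replicate 4 raised the count to 23, beside 1999 of 14234 genes higher. Scaled to myofibre genes, the median was -0.02, where all genes moved to -0.33, and no member was called.

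At 12d post-10U Col the median of the members was close to 0. All 4 libraries had a low ratio. The median was -0.04, with 25 of 47 members below vehicle and 22 above, and edgeR called 0 members beside 1.23% of all genes, with 1 member at an unadjusted p under 0.05 and 0 by DESeq2. With the class term the median was -0.22, again with 0 called (9 at an unadjusted p under 0.05), beside 10.1% of all genes. Sdha was at 1216.3, 1122.0, 1394.6 and 836 CPM, Cox7a1 at 291, 247, 337 and 203, and Cycs at 25.2, 22.4, 25.1 and 15.7. Each of these sets spans or overlaps the vehicle values. Cox6a2, at 725, 671, 761 and 357 CPM, lay below the 887, 935 and 783 of vehicle, as it did at 6d (632, 556 and 751). In all, 3 members lay below every vehicle library at 12d, beside 7.82% of all genes, and 1 above, beside 9.16%. With myofibre scaling the median was +0.46, where all genes moved to +0.52. Of the marker lists, that of keratinocytes lay below every vehicle library (22.9 to 46.5 and 62.1 to 200).

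From 6d to 12d, 30 of 47 members rose and 3 fell without the class term, with a median of +0.85, beside 13.4% of all genes higher and 13.0% lower. These were the 4 complex II genes, 7 of 9 of complex III, 7 of 16 of complex IV, 10 of 14 of complex V, Cycs and Atp5s. Cycs had the highest difference at +1.98 (SE 0.25, adjusted p = 0.0079), and the 3 that fell were Cox8a (-1.21, SE 0.13, adjusted p = 0.00632), Cox6a1 (-0.51, SE 0.14, adjusted p = 0.0371) and Cox7a2l (-0.50, SE 0.10, adjusted p = 0.0158). Every 6d library had a high ratio and every 12d library a low one, so time and class cannot be told apart in this pair. Without 12d replicate 1, 2 or 3 the count of members was 11, 12 or 12, and without 6d replicate 1 or 2 it was 13 or 6. In the joint fit without the class, 14 of 48 were higher, beside 9.68% of all genes, and 2 lower. With the class term, where other groups supply the class difference, the median was 0.0, edgeR called 0 members (3 at an unadjusted p under 0.05), and 0.188% of all genes were called. With myofibre scaling no member was called, and the median was +0.09, where all genes moved to -0.76.

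The 0.2U Col groups ask what a lower dose of the enzyme did. In 1C, 41 of 46 members lay below vehicle, with a median of -0.29 and -0.11 with the class term. EdgeR called 0 members and 0.0% of genes without the term, and 0 members and 0.695% of genes with it. A single member, Cox6a1, had an unadjusted p under 0.05. It was at 90.9, 68.0, 101 and 164 CPM, with 3 of 4 libraries above all vehicle libraries (+0.92, SE 0.36, adjusted p = 0.371). The libraries split by ratio, with replicates 1 and 2 at 6.82 and 7.29 and replicates 3 and 4 at 6.47 and 6.7 on the mean log2 CPM of all members. The median was +0.29 when scaled to myofibre genes, where all genes moved to +0.54. The brown fat list summed to 142 to 1046.1 CPM in 1C and 147 to 173 in vehicle, and the keratinocyte list lay above every vehicle library (319 to 702 and 62.1 to 200).

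In RPC, 42 of 47 members lay below vehicle, with a median of -0.20 and -0.43 with the class term. EdgeR again called 0 members, beside 0.0% of genes without the term and 1.51% with it, although 4 members had an unadjusted p under 0.05 without the term and 23 with it. DESeq2 called 1, beside 1.78% of all genes lower, Cox6a2, at 630, 494, 463 and 574 CPM, below each of the 3 vehicle libraries (-0.66, adjusted p = 0.00481; edgeR adjusted p = 0.276). Replicate 1 stood highest, at 21718.0 summed CPM over all members, where replicates 2 to 4 had 15249.8 to 15694.8. The myofibre list lay below every vehicle library in RPC (106115.5 to 135515.1 and 138416.2 to 223774.6 CPM) and the brown fat list above (233 to 409 and 147 to 173). The salivary gland list summed to 14593.9 to 171870.6 CPM in RPC and 68.7 to 66628.4 in vehicle, with overlap, and the part of these lists was not tested. Scaled to myofibre genes the median was +0.45, where all genes moved to +0.62. The sign of the members' median in 1C and RPC thus depended on the scaling. It lay below the median of all genes under both scalings.

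Ratios of paralogous subunits within a library do not depend on the scaling of libraries. For 7 pairs and 7 comparisons with vehicle, 49 in all, an exact two-sided permutation test gave no adjusted p under 0.35. The exact permutation test cannot go below p = 0.1 with 3 against 3 libraries or 0.0286 with 4 against 3. In all, 7 comparisons reached that limit. With these limits over 49 tests no adjusted p could fall under 0.05, so the lack of one says nothing of the ratios. In 11 of the 49 the groups did not overlap.

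Cox6a2 to Cox6a1 had log2 ratios of 4.53, 3.51 and 4.03 in Col vehicle and 2.48, 2.46, 2.47 and 2.97 at 10U Col 2d. All 4 lay below vehicle (difference -1.43, exact permutation p = 0.0286, adjusted p = 0.35). The difference was -1.05 within low-ratio and -1.56 within high-ratio libraries. RPC lay below vehicle too, at 3.42, 2.34, 2.62 and 3.3 (difference -1.10, exact permutation p = 0.0571). For 1C the values were 2.17, 3.77, 2.61 and 2.14, with 1 library inside the vehicle range (difference -1.35, exact permutation p = 0.0857). At 6d the ratio was 2.97, 3.06 and 3.78 and overlapped vehicle (difference -0.75, exact permutation p = 0.2). At 12d, 3 libraries returned to 3.87 to 4.07 and replicate 4 was at 2.81.

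Cox7a1 to Cox7a2 was at 1.13, 0.79 and 0.79 in vehicle, at -0.94, -0.25, -0.53 and 0.6 at 2d and at 0.02, -0.46 and 0.23 at 6d. Both groups lay below vehicle (difference -1.18, exact permutation p = 0.0571, and -0.97, p = 0.1). The 2d difference was -0.36 within low-ratio and -1.36 within high-ratio libraries, and the 6d difference within high-ratio libraries was -0.86. Cox8b to Cox8a moved over the widest range of the 3 pairs. It was at 3.98, 2.7 and 1.8 in vehicle, at -0.65, -0.32, -0.23 and 2.07 at 2d and at 0.21, -0.16 and 0.66 at 6d. At 6d the groups did not overlap (difference -2.59, exact permutation p = 0.1). Against the vehicle library of the same class the 6d difference was -1.56, and the 2d differences were -2.2 within high-ratio and -1.26 within low-ratio libraries. At 12d the ratio was 3.21, 3.0, 3.12 and 2.07, with a mean difference of +0.03.

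After CFA the same 3 ratios were lower on average at both times but overlapped vehicle. Cox8b to Cox8a was at 3.62, 3.56 and 2.93 in CFA vehicle, at 2.36, 3.62 and 2.83 at 1d and at 2.07, 2.96 and 2.83 at 5d (difference -0.75, exact permutation p = 0.2). Cox6a2 to Cox6a1 differed by -0.83 at 5d (exact permutation p = 0.2). Of the other pairs, Cox4i2 to Cox4i1 was higher at 12d without overlap (+0.55, exact permutation p = 0.0286), and Cox6b2 to Cox6b1 was higher in 1C (+0.56) and lower at 12d (-0.70), without overlap and each with exact permutation p = 0.0571. Atp5g1 to Atp5g3, which encode the same mature c subunit, was lower at 6d (-1.08, exact permutation p = 0.1). Atp5g2 to Atp5g3 was higher at 2d and 12d (+1.92 and +0.89, both exact permutation p = 0.0286), but Atp5g2 had under 1 CPM in every library and no window of its exons is unique.

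**Figure D5:**
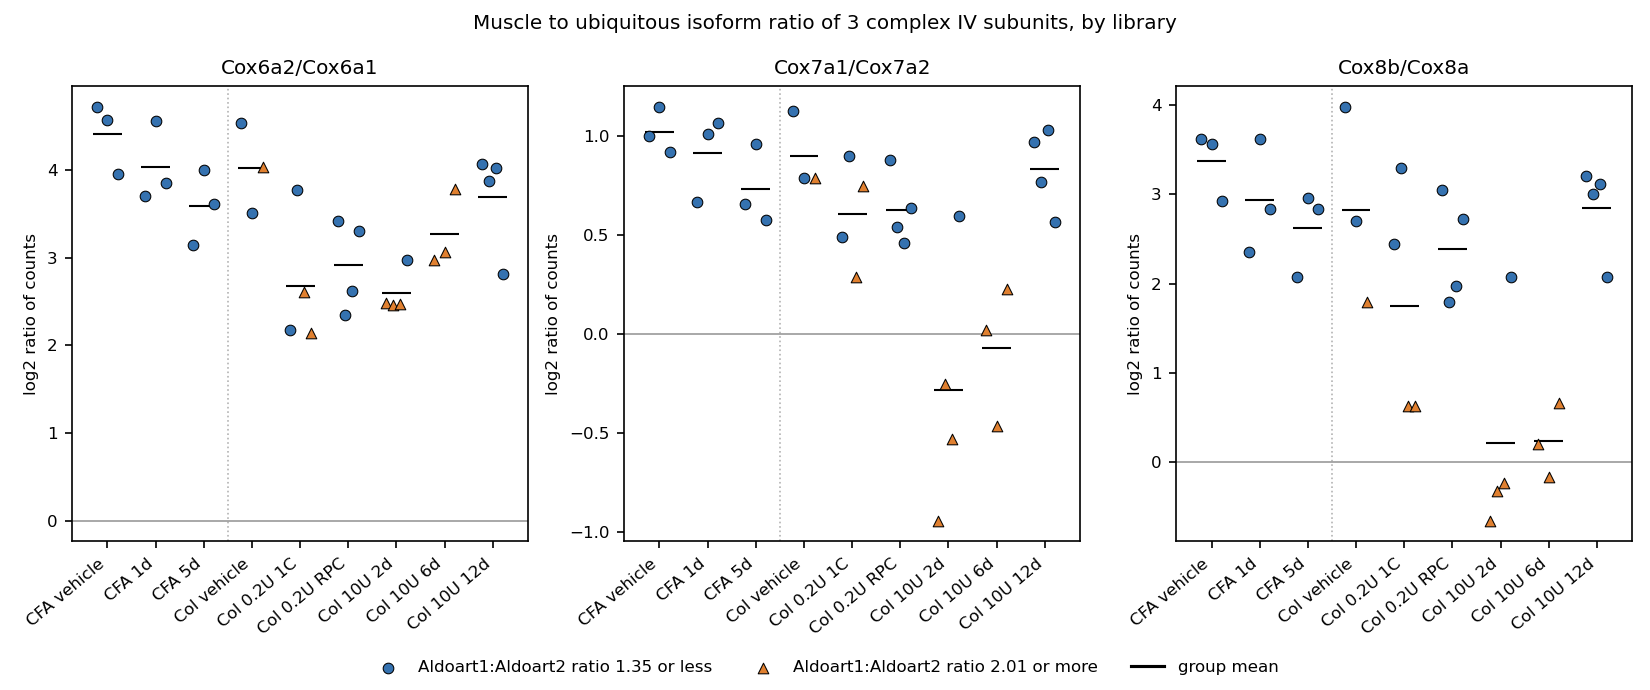
Log2 ratio of counts of the muscle to the ubiquitous isoform for Cox6a2/Cox6a1, Cox7a1/Cox7a2 and Cox8b/Cox8a (one panel each) in every library, with a bar at each group mean, circles for low-ratio and triangles for high-ratio libraries. At 10U Col 2d and 6d the high-ratio libraries of Cox8b/Cox8a lie near 0, and 2d replicate 4 lies at 2.07.

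Across libraries most members varied together. The Pearson correlation of a member with the mean of the others, over 31 libraries of log2 CPM that share depth, scaling and class, was 0.84 or more for 36 of 48. It was -0.54 for Cox8a, -0.34 for Cox6a1, -0.17 for Cox7a2l and 0.05 for Atp5g2. Over the 22 low-ratio libraries these were -0.05, -0.14, 0.63 and -0.07. The 5 non-members, of 9101 genes with a mean over 10 CPM, whose pattern was most like the mean of the members were Ndufb9 (0.993), Ndufb5 (0.987) and Ndufb11 (0.977) of complex I, the fumarase gene Fh1 (0.983) and 2310003L22Rik (0.976). Over low-ratio libraries these correlations were 0.934 to 0.984.

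The neighbouring steps of the pathway were read from lists chosen with the members. At 10U Col 2d with the class term, 12 of 17 citric acid cycle and pyruvate dehydrogenase genes fell and 0 rose, beside 12.0% of all genes lower and 11.3% higher in that fit, with a median of -0.89, among them Mdh2 (-1.27, SE 0.27, adjusted p = 0.00445) and citrate synthase, Cs (-1.16, SE 0.29, adjusted p = 0.0096). Of the mitochondrial carriers and membrane proteins 9 of 18 fell, including the muscle adenine nucleotide carrier Slc25a4 (-1.51, SE 0.38, adjusted p = 0.0105), and of the enzymes that feed electrons to ubiquinone 5 of 8. Of the assembly factors for complex IV 4 of 15 were called lower (Cox10, Higd2a, Taco1 and Sco2, described last), with a median of -0.12, and of those for complexes II, III and V 1 of 10, a share near the background, Bcs1l, which inserts the Rieske protein into complex III (-0.92, SE 0.22, adjusted p = 0.00741). Differences between the lists were not tested. Without the class term 2 of the 15 complex IV assembly factors were called and 0 genes of the other lists, the regulators below included. At 6d without the term, 5 of 17 citric acid cycle and pyruvate dehydrogenase genes fell and 0 rose, beside 13.3% of all genes lower. The carriers and membrane proteins had 8 of 18 lower, and the enzymes that feed ubiquinone 6 of 8, with 0 higher in either. With the term 1, 0 and 0 of these lists were called, beside 11.8% of all genes. Of the assembly factors, 2 for complex IV were lower and 1 for the other complexes was higher at 6d without the term.

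Among 16 regulators of mitochondrial biogenesis, 3 fell and 2 rose at 2d with the class term, shares near the 12.0% and 11.3% of all genes. Esrra, the oestrogen-related receptor alpha, differed by -0.67 (SE 0.23, adjusted p = 0.0462), Esrrb by -1.27 (SE 0.40, adjusted p = 0.0313) and the mitochondrial RNA polymerase gene Polrmt by -0.65 (SE 0.15, adjusted p = 0.00705). Esrrg rose by 0.72 (SE 0.24, adjusted p = 0.0348) and Gabpa, which encodes a subunit of GABP, by 0.48 (SE 0.13, adjusted p = 0.0168). Gabpa overlaps the member Atp5j on the opposite strand over 12.7% of the exon bases of Atp5j, and the strand setting of the counting is not given in the sources used here. At 6d without the term, 2 of 16 were lower, beside 13.3% of all genes. These were Esrra (-1.1, SE 0.27, adjusted p = 0.0248) and Polrmt (-0.77, SE 0.18, adjusted p = 0.022). With the term only Polrmt was called (-0.58, SE 0.18, adjusted p = 0.0402), beside 11.8% of all genes in either direction. At 12d with the term, Polrmt was lower (-0.61, SE 0.15, adjusted p = 0.0156) and Gabpa higher (+0.68, SE 0.14, adjusted p = 0.00542), beside 10.1% of all genes. Neither passed at 12d without the term. After CFA the 1 gene called in these lists was Slc25a5, the ubiquitous adenine nucleotide carrier. It was higher at 5d than in vehicle (+1.09, SE 0.14, adjusted p = 0.0352), beside 1.11% of all genes called. It was also higher at 5d than at 1d (+1.07, SE 0.18, adjusted p = 0.0138), beside 5.84%. The part of the salivary gland genes, high at 5d, in these differences was not tested.

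Sco2, a copper chaperone of complex IV, was read apart from the fold changes. It had 0 counts in all 11 libraries of 10U Col and 29 to 143 counts in each of the other 20. Of all genes listed, only Sco2 was at 0 in every 10U library with 10 or more counts in every other one, and only Ccdc73 showed the opposite. No member did. The 10U libraries are also those with more reads assigned to more than 1 gene. Members whose exons overlap another gene include Atp5o, Atp5j and Cox6a2, the last with Itgad over 10.0% of its exon bases. Whether the difference in such reads touches Sco2, these members or any other was not tested.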

How the data were processed

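Whole MM was sequenced by the authors in 31 samples as 50-base single-end reads from poly(A) RNA (TruSeq stranded). Per the labels and the study's methods, reads were aligned with TopHat2 to mm9 and counted per gene with HTSeq (versions not given in the sources used here). The deposited values are raw counts per gene. The closing lines of each table, which name no gene, stayed out of library sizes. They came to 59.27 to 114.2 reads aligned to several places and 7.19 to 29.12 reads on no feature per 100 counts on genes. No 2 libraries held identical values (465 pairs, highest correlation 0.9912).

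Libraries were grouped by GEO's labels, and nothing in them says which came from which animal, so p-values measure the spread between these samples. Each group was compared with its own vehicle by edgeR 4.0.16 (glmQLFit and glmQLFTest, TMM, genes with 10 or more counts in 3 or more libraries of the comparison), in R 4.3.3, on the whole table, with Benjamini-Hochberg adjustment and a threshold of 0.05. DESeq2 1.42.0, which the study used, was an alternative. CPM was counts per 1000000 of TMM-scaled library size, and log2 levels used CPM + 0.5. A count of 10 has a counting error of 31.6%. Exon lengths and overlaps came from GENCODE vM1 (mm9) and promoters from RefSeq (GRCm38.p6). Isoform ratios were tested by exact two-sided permutation (scipy 1.17.1). Fits were tested on simulated data.

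Values per library are given for the isoform pairs, the 4 Sdh genes, Cyc1, Cycs, Uqcrc1, Uqcrfs1, Atp5a1, Atp5b and, per comparison with calls, the called members of lowest and highest fold change in each complex. Other members named beyond this rule were chosen after their values were seen. The members and all gene lists were chosen with earlier results of these data known. The ratio classes, and the joint fits of the 22 Col libraries without and with them, were added after seeing the data.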

Additional observations from a re-analysis of the deposited data

Results flagged for a closer look

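In 7 of 52 sets of 4 libraries examined, 1 library lay far from the other 3, with a gap to the nearest that passed the critical value of Dixon's test. Chance passes it in about 1 of 20 sets. Replicate 1 of 0.2U Col RPC stood above its group in the mean log2 CPM of all members (7.18, where the other 3 were at 6.74 to 6.78), of complex II (9.14), of complex III (8.51) and of complex V (7.29). These 4 values share most of their genes and are 1 observation. The Cox6a2 to Cox6a1 log2 ratio was 2.97 in 10U Col 2d replicate 4, above its group, and 2.81 in 10U Col 12d replicate 4, below its group. The Cox8b to Cox8a log2 ratio was 2.07 in 10U Col 2d replicate 4, above the -0.65 to -0.23 of replicates 1 to 3. In both pairs this library was also the only one of its group with a low Aldoart1 to Aldoart2 ratio, and its part in the value was not tested.

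The effects of 10U Col at 6d and 12d differed by the direct test between those groups, with 33 of 47 members called, 30 higher at 12d and 3 lower. Each 6d library had a high ratio and each 12d library a low one, so time and class cannot be told apart, and in the joint fit of the Col libraries 16 members were called without the class and 0 with it.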

How the results depend on the processing

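The call of no member at 1d and 5d post-CFA, in 1C and at 12d post-10U Col stayed at 0 under every alternative run, leaving out each library included. DESeq2 called 1 member in RPC, 1 between CFA 5d and 1d, 28 at 10U Col 2d, 31 at 6d and 3 between 6d and 2d. A spread shared by all libraries gave 37 at 2d, 27 at 6d and 1 between 6d and 2d. Pooling both vehicle groups gave 38 at 2d and 34 at 6d. With the ratio class as a term, chosen after seeing the data, the counts were 30 at 2d, 0 at 6d, 12 between 6d and 2d and 0 between 12d and 6d. That fit also joins all Col libraries, and the same joint fit without the class gave 31 at 2d, 21 at 6d, 1 between 6d and 2d and 16 between 12d and 6d. With high-ratio libraries only, where vehicle has 1 library and no test was made, the members' median was -0.27 at 6d and turned to 0.08 in 1C. Scaled to myofibre genes, they were 14 at 2d and 12 at 6d, all upward, and 0 between 12d and 6d. The log2 fold changes then turned positive for Sdha (0.32), Uqcrc1 (0.04), Cox4i1 (0.29), Cox6a2 (0.59), Atp5a1 (0.26) and Atp5b (0.45) at 2d and for Sdha (0.24), Cox4i1 (0.23) and Atp5j (0.54) at 6d. Without 1 library at a time the counts ran from 0 to 37 at 2d, from 1 to 29 at 6d, from 0 to 23 between 6d and 2d and from 6 to 41 between 12d and 6d. The 37 and the 23 came without 2d replicate 4. Between 12d and 6d the count was 11, 12 and 12 without 12d replicates 1, 2 and 3, and 13 and 6 without 6d replicates 1 and 2. The cause of these changes was not tested. With these numbers of libraries no adjusted p of an isoform ratio could fall under 0.05 under any alternative, so the lack of one is no result.

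The labels give replicate numbers but do not say that equal numbers share an animal or day. Between libraries with equal numbers, the correlation of deviations from the group mean ran from -0.393 to 0.573. It was positive for every number only between CFA 1d and vehicle, at 0.093, 0.256 and 0.455. A replicate block, which leaves out replicate 4 of groups of 4, gave 37 called at 2d, 1 at 6d and 6 between 6d and 2d.

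The simulated data held a log2 change of 2 only, so the detection of smaller changes was not tested, and members under 1 CPM rest on few counts.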
